A study of Homo sapiens with 21 samples.

Results

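The 10 genes described here belong to the transcriptional output of the Hippo pathway: the coactivators YAP1 and WWTR1 (the gene of TAZ), the DNA-binding factors TEAD1 and TEAD4, the target genes CCN1, CCN2, ANKRD1, AMOTL2 and LATS2, and VGLL3, another cofactor of the TEADs. They were listed by symbol, with earlier results of these data known, and their Ensembl identifiers were looked up among the 53515 genes of the count files. All 10 were found and measured. RNA sequencing covered 17 cancer cell lines in 21 libraries: 7 treatment-naïve parental lines and 10 derivatives that had been exposed to rising doses of a drug over months. From liver, HepG2 gave HepG2S1 and HepG2S3, which resist sorafenib. From pancreas, PancVB (Panc 03.27) gave PancB1Q and PancB1V, which resist 5-fluorouracil. From lung, HCC4006P1 gave the erlotinib-resistant HCC4006ER, HCC4006P2 the gefitinib-resistant HCC4006GR, and HCC827P the gefitinib-resistant HCC827GR. From ovary, UWB1.289 gave U10 and U100, which resist olaparib, and IGROV-1 gave the cisplatin-resistant IGROV-1/CDDP. Each resistant line is a single derivative, and no genotype other than that of the named line is given. Only 4 lines were sequenced as 2 libraries, namely HepG2, HepG2S3, HCC4006P1 and HCC4006ER, and 13 lines as 1.

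In the Hippo pathway, a chain of kinases ends in LATS1 and LATS2, which phosphorylate YAP1 and TAZ and keep them out of the nucleus. Coactivators that escape this enter the nucleus, bind a TEAD on DNA and switch on genes such as CCN1 and CCN2, which encode secreted matricellular proteins. AMOTL2 and LATS2 are targets that also restrain YAP1, so their RNA is part of a negative feedback loop. The activity of YAP1 depends on its phosphorylation and location, neither of which an RNA count measures.

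Libraries held 9851195 to 36639473 counts on genes (median 19498932), so 3 counts, taken as the smallest detected number, were worth 0.0819 to 0.305 CPM, which are counts scaled to a library total of 1000000. Some libraries stood apart from their labels. HCC4006P1 replicate 1 had no counts past a point on chromosome 7, and 18.1% of the counts of replicate 2 lay there. None of the 10 genes is in that stretch, but the CPM of that library are inflated, so beside the tests of HCC4006P1 and HCC4006ER the members are given below as CPM of the counts outside the stretch. The means per line, the changes between lines and the other pathway genes are on CPM of all counts. HepG2S1 and HepG2S3 had almost none of the liver markers of HepG2: the summed level of 6 hepatocyte genes was 17182 CPM in HepG2, 1.02 in HepG2S1 and 18.1 in HepG2S3. ALB was at 0 in HepG2S1 and at 7.44 and 10.9 CPM in the HepG2S3 libraries, against 16105 and 8261 in HepG2. Of 4 lung markers, 3 were under 1 CPM in HCC4006P1 and in HCC4006ER, and 0 in HCC4006P2. Among them NKX2-1 was at 113 CPM in HCC4006P2, but at 0 and 0.160 in the HCC4006P1 libraries and at 0 in HCC4006ER. The other marker, EGFR, lies in the stretch without counts. It was at 1036 CPM in HCC4006P1 replicate 2, 962 in HCC4006P2, and 194 and 201 in the HCC4006ER libraries. In IGROV-1 and IGROV-1/CDDP, 3 of 4 ovarian markers were under 1 CPM, and PAX8 alone stood out, at 664 and 515 CPM. Whether these differences bear on the genes below was not tested.

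All members but CCN2, ANKRD1 and VGLL3 were at 10 CPM or more in every line (17 of 17). LATS2, the kinase that restrains YAP1, spanned the narrowest range, from 12.7 CPM in HCC827P to 59.0 in IGROV-1/CDDP. The widest ranges were those of VGLL3, from 3 counts (0.109 CPM) in IGROV-1 to 1392 CPM in HCC4006P1, and of CCN2, from 10 counts (0.396 CPM) in IGROV-1/CDDP to 1196 in U10. CCN2 reached 10 CPM in 11 lines, ANKRD1 in 15 and VGLL3 in 6. Per kilobase of annotated exon, the median over lines was highest for CCN1 (76.5 CPM per kb) and ANKRD1 (70.9) and lowest for VGLL3 (0.536).

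**Figure D1:**
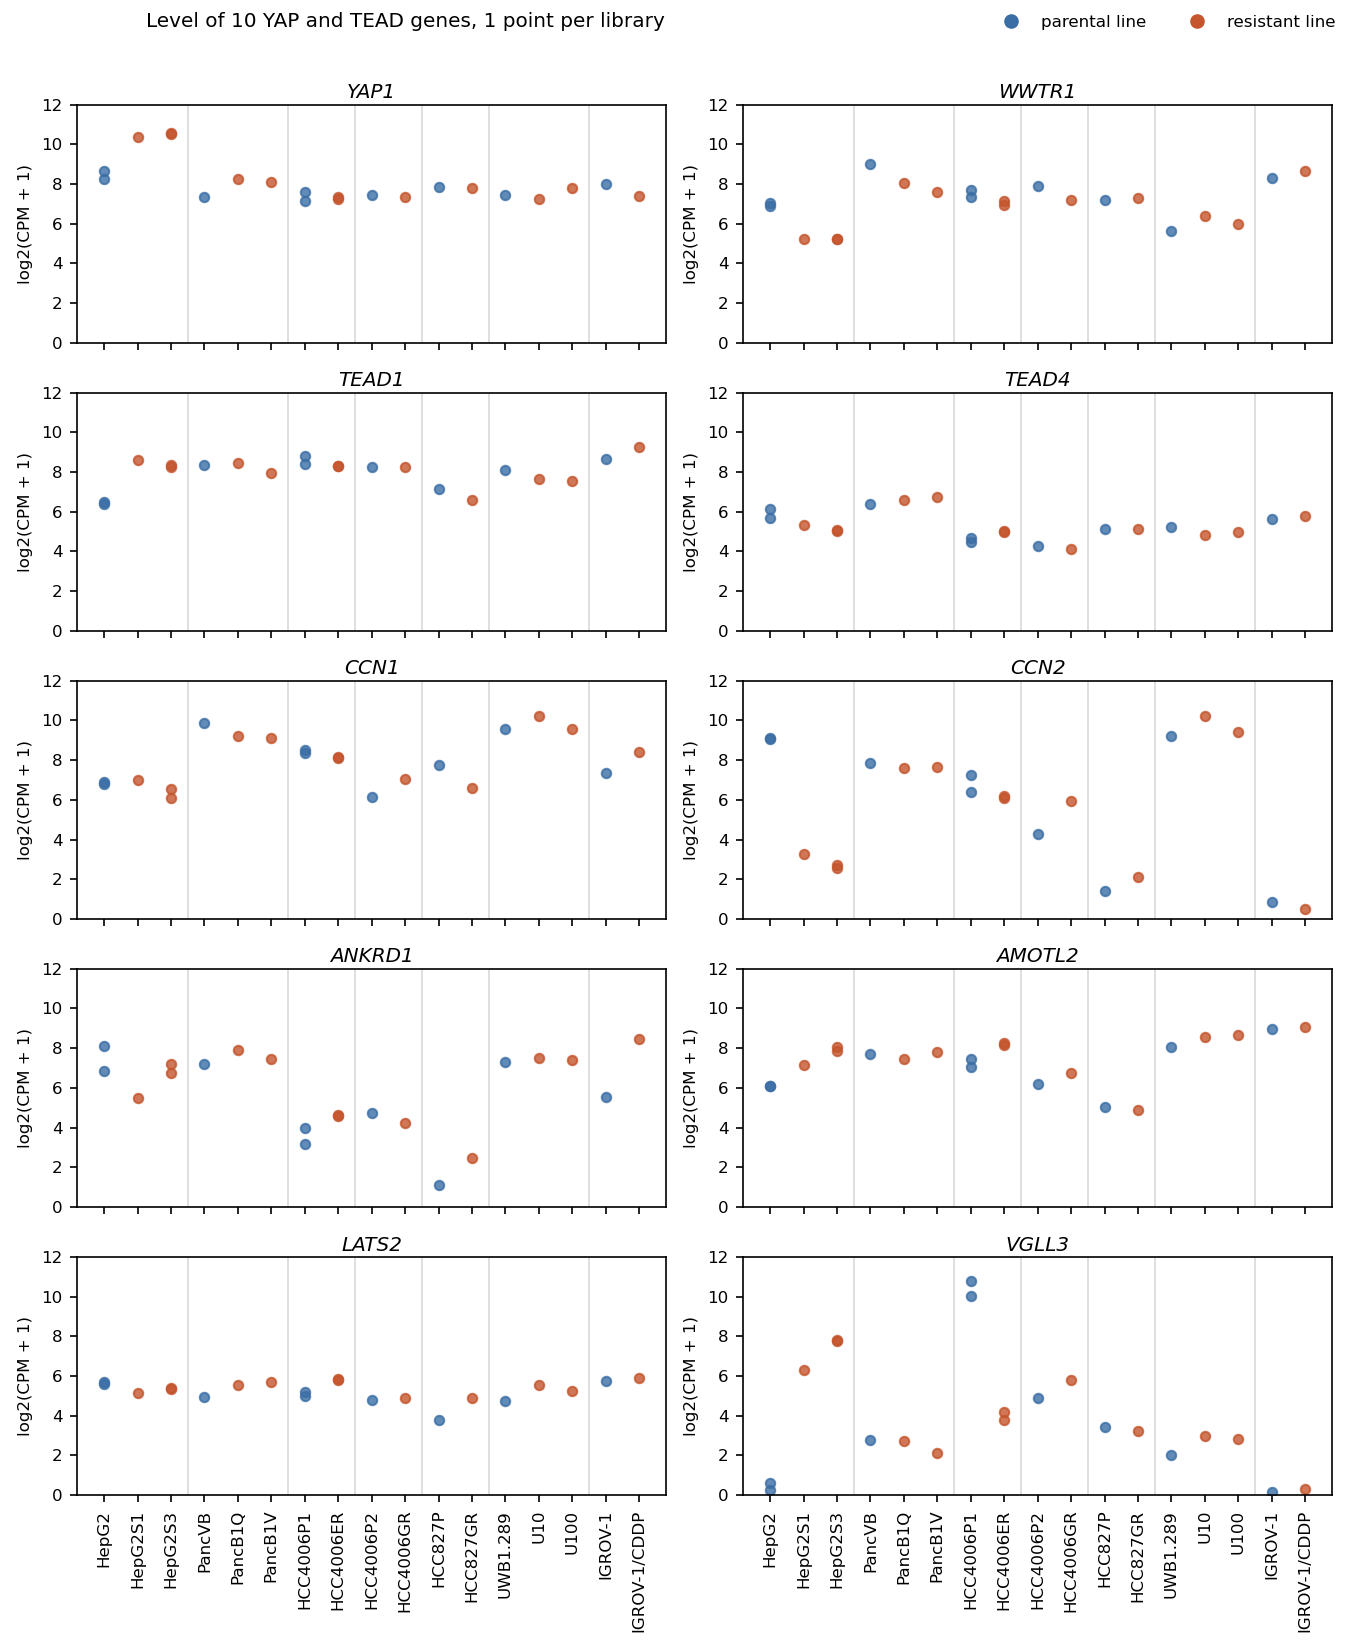
Level of each gene as log2(CPM + 1), where CPM are counts scaled to the library's total on genes, 1 point per library, with each parental line (blue) followed by its resistant derivatives (orange) between grey lines. CCN2 and VGLL3 cover most of the axis, while LATS2 stays within 12.7 to 59.0 CPM.

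Across the 10 pairs, a change is the difference of log2(CPM + 1) between the resistant line and its parental line, with libraries of a line averaged. Of the 100 changes, 22 were at least 2-fold, 14 up and 8 down. The HepG2 pairs held 13 of these, and the other 8 pairs held 9 of 80. In HepG2S1, 4 members were at least 2-fold higher and 3 lower, against 25.5% and 18.4% of all genes at 1 CPM or more in either line. In HepG2S3 4 were higher and 2 lower, against 27.3% and 17.7%. These pairs share the HepG2 libraries. Scaling by TMM in place of total counts shifted the median of all genes from 0.25 to -0.09 on the log2 scale in HepG2S1, from 0.28 to 0.00 in HepG2S3 and from -0.12 to 0.06 in PancB1Q. It turned the shares to 18.7% higher and 24.4% lower in HepG2S1, 21.7% and 22.3% in HepG2S3, and in PancB1Q from 6.10% and 9.41% to 8.79% and 6.76%.

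In the remaining pairs most members moved less than 2-fold. HCC827GR had 2 members higher (10.6% of all genes) and 1 lower (7.67%), and IGROV-1/CDDP had 2 higher (5.55%) and 0 lower (7.21%). HCC4006GR had 1 higher (7.75%) and 0 lower (7.47%), and U10 had 1 higher (6.27%) and 0 lower (5.11%). The genes concerned were ANKRD1, LATS2 and the lower CCN1 in HCC827GR, ANKRD1 and CCN1 in IGROV-1/CDDP, and CCN2 in HCC4006GR and U10. PancB1V had 0 higher (8.89%) and 1 lower (7.25%), which was WWTR1, and HCC4006ER had 0 higher (10.6%) and 1 lower (12.4%), which was VGLL3. On totals without the stretch, 2 members passed 2-fold upward in HCC4006ER, ANKRD1 at 1.14 and AMOTL2 at 1.06 on the log2 scale, and ANKRD1 did so by TMM too (1.05). PancB1Q and U100 had 0 in either direction, beside 6.43% and 1.73% of all genes in U100. By TMM, YAP1 passed 2-fold in PancB1Q (1.12) and TEAD4 in HepG2S3 (-1.17). With only 10 members and no test of the list, these counts cannot tell whether the list differs from all genes.

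**Figure D2:**
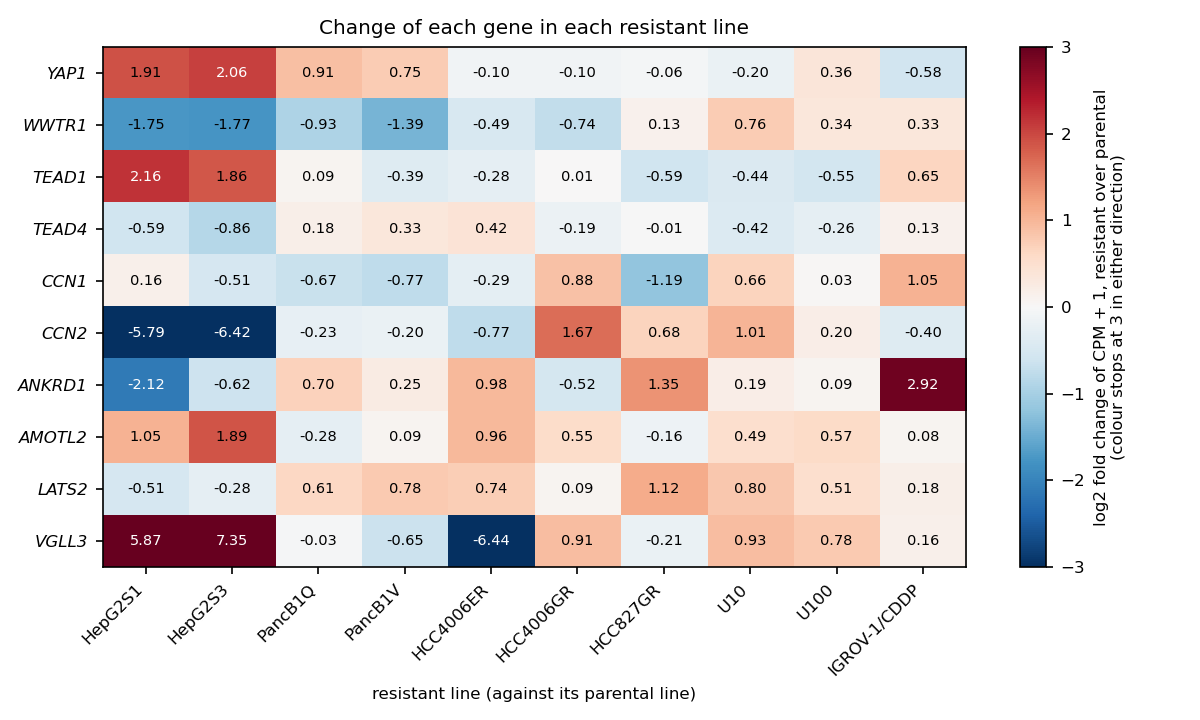
Change of each gene (rows) in each resistant line (columns) against its parental line, as log2 fold change of CPM + 1, printed in each cell, with colour stopping at 3. HepG2S1 and HepG2S3 carry the deepest colours, with CCN2 at -5.79 and -6.42 and VGLL3 at 5.87 and 7.35, while VGLL3 fell by 6.44 in HCC4006ER.

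In the liver and pancreas pairs YAP1 was higher and WWTR1 lower in every resistant line. YAP1 stood at 304 and 405 CPM in the HepG2 libraries, 1333 in HepG2S1, and 1507 and 1461 in HepG2S3, so every derivative library was above both parental ones. WWTR1 went from 133 and 119 CPM in HepG2 to 36.8 in HepG2S1 and 36.2 in each HepG2S3 library. HepG2S3, the replicated derivative, had YAP1 3.37-fold higher (log2 fold change 1.75 ± 0.19 SE, edgeR adjusted p = 0.000901) and WWTR1 4.33-fold lower (-2.11 ± 0.14 SE, edgeR adjusted p = 0.000179). Per kilobase of exon, YAP1 stood at 56.2 CPM and WWTR1 at 15.1 in HepG2, and at 235 and 4.33 in HepG2S3.

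In the pancreas lines, which have no replicates, YAP1 was at 160.5 CPM in PancVB, 303 in PancB1Q and 271 in PancB1V. WWTR1 was at 506, 265 and 192 CPM in the same order. These pairs share the PancVB library. The changes, 0.91 and 0.75 for YAP1 and -0.93 and -1.39 for WWTR1, exceeded the largest difference that each gene showed between 2 libraries of a line (0.48 and 0.36), which is the only replicate yardstick for lines with 1 library.

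In the lung and ovary lines the changes of YAP1 ran from -0.58 in IGROV-1/CDDP to 0.36 in U100. In order of level, HepG2S3 and HepG2S1 stood first, HepG2 followed with 304 and 405 CPM, and the other 14 lines lay between 150.4 CPM in U10 and 303 in PancB1Q, so HepG2 and PancB1Q do not differ beyond the spread of HepG2. WWTR1, the paralog of YAP1, was lower in HCC4006GR (241 to 144 CPM) and higher in U10 (49.1 to 83.8 CPM). It was at 144 and 158 CPM in HCC827P and HCC827GR, at 62.2 in U100, and at 316 in IGROV-1 with 398 in its derivative. PancVB, at 506 CPM, thus had the most WWTR1 of the 17 lines and the HepG2 derivatives the least. Outside the stretch, YAP1 was at 201 and 177 in HCC4006P1 and at 199.6 and 189 in HCC4006ER, and the groups overlapped (log2 fold change -0.04 ± 0.11 SE, edgeR adjusted p = 0.800). WWTR1 was at 211 and 201 in HCC4006P1 and at 173 and 149.9 in HCC4006ER, a fall of 1.35-fold (edgeR adjusted p = 0.0253), which was not called without either HCC4006ER library (edgeR adjusted p = 0.165 and 0.388).

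TEAD1, which brings the coactivators to DNA, was lowest of all lines in HepG2 (83.8 and 88.6 CPM) and stood at 389 in HepG2S1 and at 301 and 332 in HepG2S3. HepG2S3 differed from HepG2 by a log2 fold change of 1.56 ± 0.13 SE (edgeR adjusted p = 0.000389). TEAD4, its paralog, was lower instead, from 68.3 and 50.2 CPM in HepG2 to 39.0 in HepG2S1 and to 31.4 and 33.1 in HepG2S3 (-1.19 ± 0.19 SE, edgeR adjusted p = 0.00378). Neither TEAD changed 2-fold in any pair outside HepG2. The highest TEAD1 level was that of IGROV-1/CDDP, 623 CPM against 396 in IGROV-1, and the highest TEAD4 level that of PancB1V, 105 CPM against 83.7 in PancVB. TEAD1 was lower in HCC827GR than in HCC827P (94.3 against 143 CPM) and lower in U10 and U100 than in UWB1.289 (203 and 188 against 276). In these lines TEAD4 ran from 27.0 CPM in U10 to 36.4 in UWB1.289. In HCC4006ER, TEAD4 rose 1.40-fold (25.3 and 26.7 to 37.9 and 39.0 outside the stretch, edgeR adjusted p = 0.0286). That call was lost with DESeq2 (adjusted p = 0.0547), with the genes of the stretch in the edgeR fit (adjusted p = 0.10) and without either HCC4006ER library (edgeR adjusted p = 0.204 and 0.304). TEAD1 was at 452 and 419 in HCC4006P1 and at 397 and 395 in HCC4006ER, without overlap but not past the threshold (edgeR adjusted p = 0.138).

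CCN2, a secreted matricellular protein and the target most often used to read YAP activity, had the deepest fall of any member in the HepG2 pairs by CPM, -6.42 on the log2 scale in HepG2S3. It stood at 529 and 544 CPM in HepG2, 8.73 (86 counts) in HepG2S1, and 4.84 and 5.68 (155 and 174 counts) in HepG2S3. The fall in HepG2S3 was 127-fold (log2 fold change -6.99 ± 0.17 SE, edgeR adjusted p = 2.59e-05). In that line YAP1 and TEAD1 were higher than in HepG2, and WWTR1 and TEAD4 lower. CCN1, the close relative of CCN2, stayed at 127 CPM in HepG2S1 against 109 and 119 in HepG2, and was at 66.7 and 92.6 in HepG2S3 (-0.83 ± 0.19 SE, edgeR adjusted p = 0.0124). The CCN1 change in HepG2S1 was 0.16 by total counts and -0.21 by TMM, so its direction there is not set, and without HepG2S3 replicate 1 the call in HepG2S3 was lost (edgeR adjusted p = 0.123).

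ANKRD1, a muscle ankyrin repeat protein that shuttles to the nucleus, was spread widely in HepG2, at 278 and 113 CPM. It was at 44.3 in HepG2S1 and at 108 and 146 in HepG2S3, a difference that did not pass the test (-0.94 ± 0.44 SE, edgeR adjusted p = 0.112). Without HepG2 replicate 2 the edgeR log2 fold change was -1.47, and without HepG2 replicate 1 the change in CPM turned from -0.62 to 0.16. The size and direction of the ANKRD1 change in HepG2S3 thus rest on which HepG2 library is used. A run with a single HepG2 library measures no spread in HepG2.

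IGROV-1/CDDP had ANKRD1 at 357 CPM against 46.4 in IGROV-1, with 95% Wilson intervals of 349 to 364 and 43.9 to 49.0, and CCN1 at 336 against 162. CCN2 was close to the smallest detected number in these lines: IGROV-1 had 23 counts (0.837 CPM) and its derivative 10 (0.396 CPM). The ovarian UWB1.289 and its derivatives had the most CCN2, with 591 CPM in UWB1.289, 1196 in U10 and 677 in U100, and CCN1 was at 749.8, 1189 and 768 in the same lines. U10 and U100 share the UWB1.289 library, and the change of CCN2 was 1.01 in U10 and 0.20 in U100.

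HCC827P had little of ANKRD1 (20 counts, 1.15 CPM) and of CCN2 (29 counts, 1.67 CPM), and HCC827GR had 70 and 51 counts of them. CCN1 was at 216 CPM in HCC827P and 94.4 in HCC827GR, a change of -1.19. In the pancreas pairs CCN1 was also lower (931 CPM in PancVB, 585 in PancB1Q and 545 in PancB1V), while CCN2 was within 229 to 194 CPM. ANKRD1 stood above its parental level in these lines, at 148 CPM in PancVB, 242 in PancB1Q and 176 in PancB1V, though by less than the gap between the HepG2 libraries (278 and 113 CPM). In UWB1.289, U10 and U100 it was at 159, 182 and 169 CPM. In HCC4006GR both were higher than in HCC4006P2, CCN1 at 130.5 against 70.5 CPM and CCN2 at 60.0 against 18.2.

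HCC4006P1 and HCC4006ER are the other replicated pair. CCN2 was at 158 and 105 in HCC4006P1 and at 83.2 and 88.7 in HCC4006ER outside the stretch (-0.69 ± 0.19 SE, edgeR adjusted p = 0.0231), a call lost without HCC4006ER replicate 1 (edgeR adjusted p = 0.0948). ANKRD1 rose from 15.2 and 10.0 to 28.1 and 30.0 (1.13 ± 0.21 SE, edgeR adjusted p = 0.00499). CCN1 was at 372 and 413 against 347 and 356, a log2 fold change of -0.24 that was not past the threshold (edgeR adjusted p = 0.151). Without HCC4006P1 replicate 1 it was -0.36, with a single HCC4006P1 library left and so no spread measured there.

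The promoters of CCN2 and ANKRD1 are shown because both are widely used YAP targets and their fitted changes in HepG2S3 were -6.99 and -0.94. RefSeq promoter windows were matched for 7 of the 10 members in 9 entries (TEAD1, TEAD4 and CCN1 had no entry). The 250 bases before the start were searched on both strands for GGAATG, the core letters of the TEAD binding motif. The capitals mark each match, and both windows are written on the gene's strand, 5′ to 3′, with coordinates on GRCh38.p14. CCN2 is at chr6:131951373-131951622 (minus strand) and ANKRD1 at chr10:90921088-90921337 (minus strand).
CCN2: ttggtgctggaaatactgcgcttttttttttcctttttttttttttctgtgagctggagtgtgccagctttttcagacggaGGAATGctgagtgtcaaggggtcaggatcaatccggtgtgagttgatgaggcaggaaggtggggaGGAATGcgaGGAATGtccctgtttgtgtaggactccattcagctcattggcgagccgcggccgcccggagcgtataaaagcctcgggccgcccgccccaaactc
ANKRD1: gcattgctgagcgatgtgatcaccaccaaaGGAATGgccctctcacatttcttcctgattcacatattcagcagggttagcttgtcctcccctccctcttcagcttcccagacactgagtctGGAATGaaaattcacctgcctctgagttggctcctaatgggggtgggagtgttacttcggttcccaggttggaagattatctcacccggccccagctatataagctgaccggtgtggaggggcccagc

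CCN2 held 3 matches, whose first bases lie 169, 104 and 95 bases before the start, and ANKRD1 held 2, at 220 and 128 bases. YAP1 held 1 match and 1 of the 2 AMOTL2 entries held 1, while WWTR1, LATS2 and VGLL3 held 0 in this window. Of all 35116 promoters, 11.9% held at least 1 match, 0.940% at least 2 and 0.0826% at least 3. The letters are a description of the sequence and were not tested for binding.

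The feedback genes followed separate courses. AMOTL2, a scaffold that holds YAP1 at junctions, was at 67.1 and 66.8 CPM in HepG2, 139.7 in HepG2S1, and 234 and 267 in HepG2S3 (1.59 ± 0.13 SE, edgeR adjusted p = 0.000417). In HCC4006ER it was at 358 and 383 outside the stretch, against 134 and 219.9 in HCC4006P1 (0.98 ± 0.25 SE, edgeR adjusted p = 0.0176). AMOTL2 was higher in 8 of 10 pairs, but in only 6 by more than 0.42, its largest gap between 2 libraries of a line. Averaged per parental line, its change was above 0 in 5 of 7. AMOTL2 reached 2-fold on all counts in HepG2S1 and HepG2S3, and in HCC4006ER on totals without the stretch (1.06 on the log2 scale, against 0.96 on all counts). In HepG2S1 it did so by total counts, at 1.05, but not by TMM, at 0.68. U10 and U100 had 379.6 and 401 CPM, against 269 in UWB1.289, and HCC4006GR had 105 against 71.5 in HCC4006P2. The most AMOTL2 was in IGROV-1 (504 CPM) and IGROV-1/CDDP (532), and the least in HCC827P (32.4) and HCC827GR (28.9), whose 95% Wilson intervals overlap.

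LATS2 had the same direction in all pairs outside the liver lines, a subset set apart after the values were seen. It was higher in 8 of 8 of them, which share 6 parental lines, both HCC4006 stocks included. The share of all genes with a single direction in these pairs is not given. The changes of LATS2 ran from 0.09 in HCC4006GR, where the counting interval of -0.11 to 0.28 spans 0, to 1.12 in HCC827GR (12.7 to 28.7 CPM). LATS2 stood at 29.7 CPM in PancVB, 46.0 in PancB1Q and 51.8 in PancB1V, and at 25.8 in UWB1.289, 45.8 in U10 and 37.1 in U100. The changes in 6 of these 8 pairs exceeded 0.20, the largest gap of LATS2 between 2 libraries of a line. In both HepG2 derivatives it was lower, at 50.1 and 48.2 CPM in HepG2, 34.1 in HepG2S1, and 39.5 and 41.3 in HepG2S3. HepG2S3 passed the test (-0.60 ± 0.13 SE, edgeR adjusted p = 0.0106), but not when either of its libraries was left out (edgeR adjusted p = 0.185 and 0.145). In HCC4006ER it rose from 36.4 and 38.7 to 70.3 and 68.6 outside the stretch (0.80 ± 0.13 SE, edgeR adjusted p = 0.00277).

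VGLL3, a vestigial-like protein that binds TEADs without binding DNA itself, had the widest changes of the list. HepG2 had 7 and 19 counts (0.191 and 0.545 CPM), HepG2S1 78.8 CPM, and HepG2S3 217 and 228 CPM (log2 fold change 8.92 ± 0.40 SE, edgeR adjusted p = 7.08e-05). HCC4006ER had 21.5 and 15.7 outside the stretch, against 1797 and 1301 in HCC4006P1 (-6.46 ± 0.24 SE, edgeR adjusted p = 1.14e-05). In each comparison the libraries of the groups did not overlap, and the directions were opposite.

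The parental stocks HCC4006P1 and HCC4006P2, both named HCC4006, differed in VGLL3 before any drug resistance. As CPM of counts outside the stretch, VGLL3 was at 1797 and 1301 in HCC4006P1, 35.4 in HCC4006P2 and 67.1 in HCC4006GR. CCN2 was at 158 and 105 in HCC4006P1 against 22.6 in HCC4006P2, and CCN1 at 372 and 413 against 87.6. YAP1 was at 201 and 177 against 213. HCC4006P2 has 1 library, so these differences have no test. In the remaining lines VGLL3 was between 3 counts in IGROV-1 and 9.75 CPM in HCC827P.

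Counted together, 9 of 10 members passed the test in HepG2S3 (4 higher, 5 lower), where 63.5% of the 16929 genes tested did, 31.4% higher and 32.1% lower. In HCC4006ER 7 of 10 passed (4 higher, 3 lower), where 49.0% of 12791 genes did, 24.1% higher and 24.9% lower. The median log2 fold change of the members was -0.71 in HepG2S3 and -0.13 in HCC4006ER, beside -0.01 and 0.01 over all genes tested. The members were thus called often in comparisons in which a large share of all genes was called. When genes past the stop of HCC4006P1 replicate 1 stayed in the HCC4006 fit, 2 members were called, where 21.4% of 15978 genes were. With a library left out, the number of members called moved together with the share of all genes called. Without HCC4006ER replicate 1, WWTR1, TEAD4 and CCN2 lost their call.

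**Figure D3:**
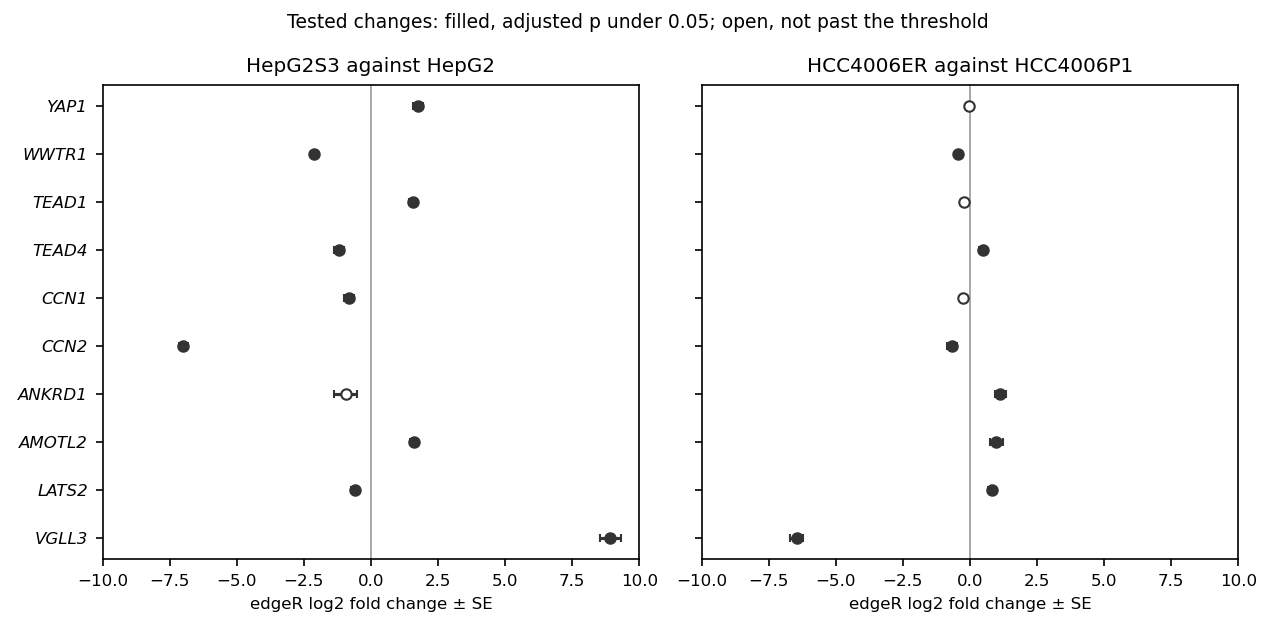
Log2 fold change with its standard error from the edgeR quasi-likelihood test, 2 libraries against 2 in each panel, with filled points for an adjusted p under 0.05. In HepG2S3 CCN2 lies at -6.99 and VGLL3 at 8.92, and in HCC4006ER VGLL3 lies at -6.46 with all other members between -0.69 and 1.13.

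The change itself differed between the replicated pairs for 8 of 10 members in an interaction test over 8 libraries, where 55.9% of 14479 genes differed. The change was more positive in HCC4006ER for 5 members (27.7% of all genes) and more negative for 3 (28.2%). CCN2 fell less in HCC4006ER than in HepG2S3, by 6.28 ± 0.27 SE on the log2 scale (edgeR adjusted p = 3.74e-07). LATS2 was lower in HepG2S3 and higher in HCC4006ER, with a difference of 1.37 (edgeR adjusted p = 0.000266). ANKRD1, higher in HCC4006ER and not called in HepG2S3, had a difference of 2.04 (edgeR adjusted p = 0.00961). AMOTL2, higher in both, did not pass (-0.64 ± 0.32 SE, edgeR adjusted p = 0.124), nor did CCN1 (0.56 ± 0.24 SE, edgeR adjusted p = 0.0786).

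Over 7 parental lines, with resistant counts summed per parental line and the line as a block, 0 members and 0 of 19829 genes (0%) passed the edgeR test. At an unadjusted p under 0.05 there were 920 genes and 0 members, and DESeq2 called 113 genes and 0 members. AMOTL2 came nearest, at 0.46 ± 0.21 SE (unadjusted p = 0.0538, edgeR adjusted p = 0.994), and LATS2 followed at 0.45 ± 0.23 SE (unadjusted p = 0.0854). Without HepG2, whose derivatives lack their liver markers, LATS2 was at 0.62 ± 0.18 SE (unadjusted p = 0.00849, edgeR adjusted p = 0.646) and ANKRD1 at 1.06 ± 0.45 SE (unadjusted p = 0.0442, edgeR adjusted p = 0.757). In that run 1248 of 19258 genes had an unadjusted p under 0.05, beside these 2 members. Leaving out any other parental line gave 0 or 1 members at that level. The 7 parental lines thus gave no member a call in common.

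The pathway around the members gave 37 further genes in 4 lists: 13 upstream kinases and adaptors, 3 scaffolds, 5 TEAD and vestigial-like genes, and 17 other targets, with PTPN14 in 2 lists. In HepG2S3, of 13 kinases and adaptors tested, 5 were higher, 4 lower and 4 not called, beside 31.4% of all genes higher and 32.1% lower. Among them MAP4K4, a kinase acting upstream of LATS, fell by 3.21 on the log2 scale (861 and 741 CPM to 110.0 and 106, edgeR adjusted p = 8.63e-05), and STK4 (MST1) fell by 1.69 (107 and 141 to 48.5 and 47.4, edgeR adjusted p = 0.000751). The 5 higher were NF2 (1.37), FRMD6 (1.22), SAV1 (1.14), TAOK3 (0.53) and WWC1 (0.51). LATS1 (-0.96) and TAOK2 (-0.66) were lower too, so this list went both ways. Of 17 other targets, 10 were higher, 3 lower and 4 not called, with a median of 1.11 beside -0.01 over all genes tested.

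CCDC80, an extracellular matrix protein, led the other targets in HepG2S3, from 0.0819 and 0.0574 CPM (3 and 2 counts) to 120.3 and 117 (10.35 ± 0.23 SE, edgeR adjusted p = 2.59e-05), a fold change that depends on the prior count. MYOF, a membrane repair protein, went from 5.90 and 9.84 to 826 and 892 CPM (6.46 ± 0.31 SE, edgeR adjusted p = 8.09e-05). RBMS3, an RNA-binding protein, went from 0 and 0.0574 to 6.75 and 6.79 CPM (edgeR adjusted p = 0.000400), and its parental libraries held fewer than 3 counts. FJX1, a secreted relative of the Four-jointed kinase, fell from 2.43 and 3.50 to 0.687 and 0.326 CPM (edgeR adjusted p = 0.00332).

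In HCC4006ER, of 12 kinases and adaptors tested, 2 were higher, 4 lower and 6 not called, beside 24.1% of all genes higher and 24.9% lower. The levels that follow are CPM of all counts, in which HCC4006P1 replicate 1 is inflated. WWC1 (KIBRA), an activator of LATS, fell from 348 and 289.6 CPM to 62.5 and 60.9 (-2.32 ± 0.12 SE, edgeR adjusted p = 2.75e-05). TAOK3 (-1.58), SAV1 (-1.32) and TAOK1 (-0.61) were lower too, and FRMD6 (1.19) and MAP4K4 (0.36) were higher. Of 14 other targets tested, 6 were higher, 4 lower and 4 not called. CCDC80 again led upward, from 83.7 and 54.1 to 586 and 537 CPM (3.10 ± 0.14 SE, edgeR adjusted p = 2.03e-05), followed by ARHGEF17, from 88.6 and 63.3 to 214 and 214 CPM. The scaffold AMOTL1 rose from 41.7 and 27.2 to 77.8 and 81.7 CPM (1.28 ± 0.14 SE, edgeR adjusted p = 0.000570). F3 (tissue factor) fell from 199 and 388 to 30.6 and 35.6 CPM and FJX1 from 87.7 and 117 to 12.1 and 15.0. Of the 3 scaffolds 2 were tested in each pair, and both were higher. Of the TEAD and vestigial-like genes, 0 were higher and 2 lower of 3 tested in HepG2S3, and 2 were higher and 0 lower of 4 tested in HCC4006ER. The lower ones were TEAD3 (-1.42, edgeR adjusted p = 0.000914) and VGLL4 (-0.88, edgeR adjusted p = 0.00973), and the higher ones TEAD2 (0.79, edgeR adjusted p = 0.00791) and VGLL2, which stayed under 1 CPM in every line. These were named after their values were seen. With so few genes and no test of the lists, these counts cannot tell whether the lists differ from all genes. Over the 7 parental lines 0 of 36 pathway genes passed the edgeR test. Of them 4 had an unadjusted p under 0.05, beside 920 of all 19829 genes tested.

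**Figure D4:**
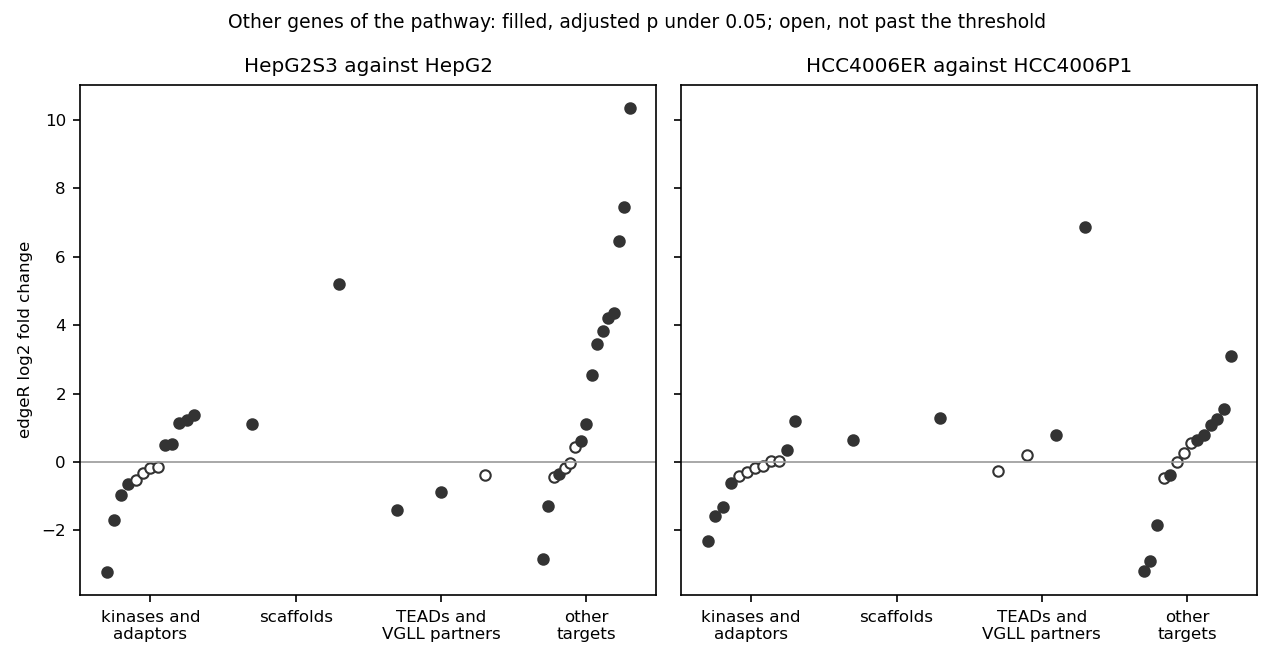
Log2 fold change from the edgeR test for the other pathway genes that were tested, grouped by role. Of 37 genes, 34 were tested in HepG2S3 and 31 in HCC4006ER. Filled points have an adjusted p under 0.05, and PTPN14 is drawn in 2 groups. In HepG2S3 the other targets reach 10.35 (CCDC80), and the kinases and adaptors lie between -3.21 and 1.37.

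As a description over the 17 lines, which are not independent because 10 derive from the other 7 and some share a parental line, the correlations among members differed widely. The Pearson correlation of log2(CPM + 1) was 0.63 between CCN1 and CCN2, 0.70 between ANKRD1 and AMOTL2, 0.67 between ANKRD1 and LATS2 and 0.67 between AMOTL2 and LATS2. Between YAP1 and the targets it was -0.28 for CCN2, -0.45 for CCN1 and 0.11 for ANKRD1. Without HepG2S1 and HepG2S3 these were 0.000471, -0.21 and 0.13, so the negative value for CCN2 rests on those lines. The genes outside the list most like CCN2, among 8703 searched, were NID1 (0.90), STAP2 (0.90) and FST (0.89), and those most like CCN1 were SNHG12 (0.92), ZNF639 (0.91) and RNASEH2B (0.88). Those most like YAP1 were H19 (0.93), SPINK6 (0.93) and PDE3A (0.92), but without HepG2S1 and HepG2S3 these values were 0.46, 0.57 and 0.24, whereas those of CCN1 and CCN2 were at 0.86 or more.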

How the data were processed

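The authors deposited whole-number counts of reads per Ensembl gene for each library, without normalization. Per the labels, libraries came from a stranded mRNA kit, and the submitters' processing notes name Bowtie, TopHat, SAMtools, HTSeq and hg19. The study's methods also describe a 3′ end kit mapped with STAR, and the rank correlation of a library's deviations with exon length ran from -0.129 to 0.195. The strand setting of counting is not given in the sources used here, and genes overlapping a member reached at most 1.15 CPM in any line. Rows that name no gene (28.0% to 42.8% of entries) were left out. Symbols, positions and exon lengths are from a GENCODE annotation on GRCh37. The members and lists were chosen with earlier results of these data known.

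CPM used the total on genes, changes used a pseudocount of 1 CPM, and intervals are 95% Wilson intervals joined for a difference, covering counting error only. Tests used edgeR 4.0.16 (quasi-likelihood, TMM, filterByExpr, Benjamini-Hochberg, adjusted p under 0.05), whose fold changes follow TMM scaling and differ from those of CPM. Nothing says that replicate libraries came from separate cultures, so p-values may measure technical spread only. HCC4006P1 replicate 1 was left out of the test over 7 parental lines. Alternatives used DESeq2 1.42.0, no gene filter, left-out libraries or lines, a replicate block, a pseudocount of 0.1 CPM and TMM sizes. The edgeR fits were also run on simulated counts with 200 genes changed, whose outcome is not given here. The 10 members are always named. Of other pathway genes, those named are up to 3 higher and 3 lower per test with the largest change, an adjusted p under 0.05 and a mean of at least 1 CPM. The remaining called kinases and adaptors, and the called TEAD and vestigial-like genes, are named as well. The most alike genes are the 3 with the highest correlation and a mean of at least 10 CPM outside the stretch. R 4.3.3 and Python 3.11.15 were used.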

Additional observations from a re-analysis of the deposited data

Results flagged for a closer look

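The change from parental to resistant line differed between the replicated pairs for 8 members, by the edgeR interaction test (adjusted p under 0.05). In the same test 55.9% of 14479 genes differed, so a difference is not particular to these members. On the log2 scale, the change in HCC4006ER minus that in HepG2S3 was -1.81 for YAP1, 1.65 for WWTR1, -1.81 for TEAD1 and 1.64 for TEAD4. It was 6.28 for CCN2, 2.04 for ANKRD1, 1.37 for LATS2 and -15.40 for VGLL3. The pairs differ in tissue, drug and stock, and these cannot be told apart. HepG2S3 lacks the hepatocyte markers of HepG2, and their part in these differences was not tested.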

How the results depend on the processing

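Counts of called members were within 1.5 times of the reported ones under most alternatives. In HepG2S3 the count ran from 7 to 10 when libraries were left out in turn, in HCC4006ER from 4 to 8, and in the interaction from 8 to 9. With all genes in the HCC4006 fit, the stretch without counts included, 2 members of the reported 7 were called. In that fit 21.4% of all genes were called, against 49.0% in the reported one. DESeq2 called 6 members, without TEAD4 (adjusted p = 0.0547), and 43.8% of all genes. Over the 7 parental lines every alternative run gave 0 members. WWTR1 and TEAD4 lost their call in HCC4006ER when either HCC4006ER library was left out. The count of changes of at least 2-fold fell from 22 to 9 without the HepG2 pairs, an alternative chosen after seeing the data. Leaving the HepG2 pairs out of the LATS2 count, and HepG2S1 and HepG2S3 out of the correlations, was also chosen after seeing the data.

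The labels of the replicated lines carry letters A and B, which were taken as replicate numbers. The titles differ from this: both HepG2 libraries have the same number there, and both HepG2S3 libraries have another. Nothing says that a letter marks a shared culture or day, and only 2 letters exist per pair. The replicate numbers were therefore not taken as pairing. Same-numbered libraries deviated together with a correlation of 0.0123 for HepG2 with HepG2S3 and 0.297 for HCC4006P1 with HCC4006ER. With the replicate number as a block, 9 members were called in HepG2S3, 7 in HCC4006ER and 9 in the interaction test, which added CCN1. The block moved the calls over all genes in HCC4006ER from 6266 to 7787.

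Of the 100 changes per pair, TMM library sizes turned the sign of 3 and total counts outside the stretch of 4, each of them a change that was under 2-fold before and after, and leaving out a library turned 2 (ANKRD1 in HepG2S3, YAP1 in HCC4006ER). A pseudocount of 0.1 CPM turned 0 and moved values by up to 1.54. Depth limits CCN2 and VGLL3 in the IGROV-1 lines, where 3 to 23 counts were seen.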
